A study of Drosophila melanogaster with 3 samples.

Results

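The 8 Hox genes of Drosophila melanogaster were examined: lab, pb, Dfd, Scr and Antp of the Antennapedia complex, and Ubx, abd-A and Abd-B of the bithorax complex, all on chromosome arm 3R. They were chosen by name, as 8 of 13945 coding genes. Each gene was given a territory, which was its gene body with 20 kb on either side, without the bases that lie nearer to the start site of another coding gene. The assay was chromatin immunoprecipitation and sequencing (ChIP-seq), with an anti-GFP antibody, of the T-box transcription factor Doc3 fused to eGFP. The material was whole embryos aged 0 to 24 hours of the Doc3-GFP strain, in 3 biological replicates that form a single group, and all 3 carried the same fusion. Whole embryos mix every tissue and stage, so fewer cells with Doc3 at a site and less Doc3 per cell cannot be told apart. No control library was analysed here, so the values are those of peak lists and not of a contrast with untagged embryos.

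Hox genes encode homeodomain transcription factors that give segments along the head-to-tail axis their identity, and they lie along the chromosome in about the order of the body regions they act in. Their active or silent state is kept by trithorax group and Polycomb group proteins, which act through DNA elements to which the GAGA factor (the product of Trl) and Pho can bind. Doc3 is a Dorsocross protein, needed with its paralogs for the amnioserosa and the heart. Antp, Ubx, abd-A and Abd-B are among the genes that divide the embryonic heart tube along its length.

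The authors deposited for each replicate a ranked list of regions, which also holds weak ones, and a thresholded list. For the series they deposited 4 thresholded lists, of which they marked 1, with 2793 peaks, as conservative, and the other 3 hold 3513, 2456 and 2301 peaks. A shared region is a stretch of at least 50 bp covered by entries of all 3 ranked lists: 24 of the 12906 such regions in the genome lay in the Hox territories. Signal is the authors' own strength value for an entry, and its scale, unstated by them, is not the same in every list. It is therefore also given as a percentile, the percent of entries in the same list with a signal no higher.

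The sequences under the regions that the results turn on come first, printed 5′ to 3′ on the strand of the gene from the dm6 genome, without bases of untranslated regions. Capitals mark the letters of the 9 motifs searched: in these stretches the GAGA factor motif GAGAG (read as CTCTC on the other strand), the Pho motif GCCAT (read as ATGGC), the short T-box motif GGTGTG and the Exd-Hox motif TGATTNAT (read as ATNAATCA). The first 3 lie in the strongest shared regions of 3 genes: chr3R:6791675-6791835 on the plus strand beside the Dfd start site, chr3R:16702891-16703121 on the minus strand in a Ubx intron, and chr3R:16934243-16934323 on the minus strand at the proximal Abd-B start site. The next pair, both on the minus strand, reach 100 bp to either side of the summits of the thresholded peaks that replicate 2 had upstream of Ubx and Antp, chr3R:16734454-16734654 and chr3R:7000748-7000948. The last is the shared region at the distal Scr start site, chr3R:6849992-6850251 on the minus strand.
Dfd start site: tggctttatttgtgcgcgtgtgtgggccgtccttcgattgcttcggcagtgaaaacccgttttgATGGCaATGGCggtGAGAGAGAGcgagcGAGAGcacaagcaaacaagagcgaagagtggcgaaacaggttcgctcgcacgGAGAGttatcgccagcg
Ubx intron: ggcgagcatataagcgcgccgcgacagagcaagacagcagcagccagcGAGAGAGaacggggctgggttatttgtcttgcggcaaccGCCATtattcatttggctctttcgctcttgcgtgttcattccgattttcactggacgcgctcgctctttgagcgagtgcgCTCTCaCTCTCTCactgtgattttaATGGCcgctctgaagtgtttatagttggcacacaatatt
Abd-B start site: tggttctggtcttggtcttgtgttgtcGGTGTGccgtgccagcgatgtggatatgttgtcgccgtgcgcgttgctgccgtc
Ubx upstream peak: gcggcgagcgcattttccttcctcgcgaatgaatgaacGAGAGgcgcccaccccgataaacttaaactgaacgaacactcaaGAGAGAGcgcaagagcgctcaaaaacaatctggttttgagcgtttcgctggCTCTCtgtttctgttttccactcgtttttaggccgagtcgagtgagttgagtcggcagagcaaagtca
Antp upstream peak: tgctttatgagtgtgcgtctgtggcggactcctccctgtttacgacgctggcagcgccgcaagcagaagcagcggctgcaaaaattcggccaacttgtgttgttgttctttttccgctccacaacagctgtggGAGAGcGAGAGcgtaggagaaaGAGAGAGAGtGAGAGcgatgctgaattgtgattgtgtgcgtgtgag
Scr start site: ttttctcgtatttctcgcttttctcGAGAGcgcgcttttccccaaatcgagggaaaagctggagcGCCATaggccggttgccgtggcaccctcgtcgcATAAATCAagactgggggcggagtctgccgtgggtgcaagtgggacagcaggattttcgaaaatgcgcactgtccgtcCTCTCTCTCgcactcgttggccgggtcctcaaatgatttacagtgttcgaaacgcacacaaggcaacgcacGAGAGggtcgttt
In the printed letters, and with overlapping copies counted, GAGAG occurred 5 times at Dfd, 5 times in the Ubx intron, 4 times upstream of Ubx, 6 times upstream of Antp, 5 times at Scr and 0 times at Abd-B. GCCAT occurred 2 times each at Dfd and in the Ubx intron and 1 time at Scr. The stretches differ in length and are a selection, so these counts do not describe the Hox regions as a set. In windows of equal length, 100 bp to either side of the centre, the printed Scr region held 3 copies of GAGAG. Of the strongest regions not printed, those of lab, pb, Antp and abd-A held 0 and that of Scr 2. Of the 24 regions, 7 held any. At least 4 copies were in 2 of the 24, at Dfd and Ubx, against 2.75% of all shared regions.

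Peaks of the strict lists lay in the territories of Ubx and Antp. A conservative summit lay in the territory of 1 of the 8 genes, Ubx, against 16.7% of all coding genes and 13.6% of the 1554 coding genes whose territories were within the members' range of sizes (19.7 to 121 kb). In the list of 3513 peaks there were 2 of 8, Antp and Ubx, against 21.3% of coding genes and 21.4% of those of like size. The list of 2456 peaks had 0 of 8, against 15.4%, and the list of 2301 peaks 0 of 8, against 14%. Among the thresholded lists of single replicates, those of replicates 1 and 3 had 0 of 8 members each, against 11.9% and 12% of coding genes. That of replicate 2 had 2 of 8, again Antp and Ubx, against 15.7%. Each count over 8 genes was 0, 1 or 2, while the background shares run between 11.9% and 21.4%. Replicate 2 was thus the only replicate whose own strict list held peaks at these genes, and the number of members with a conservative peak that 2 replicates' thresholded lists also held was 0, whichever replicate was left out.

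Ubx (chr3R:16656623-16734426, minus strand), which specifies the posterior thorax and the first abdominal segment and represses wing development in the haltere, held the conservative signal in its long intron. A pair of overlapping conservative peaks lay there, at chr3R:16702700-16703183 and chr3R:16702941-16703424. Their signals were 94.4, rank 2141 of 2793, and 20.6, rank 2607, against a median of 170 over the conservative list, so both belonged to its weaker peaks. The ranked entries at the place had signals of 20.9 in replicate 1, 59.8 in replicate 2 and 17.6 in replicate 3, at percentiles of 91.1, 96.6 and 69.2. It was the highest entry of the Ubx territory in replicates 1 and 2, whose summits lay 15 bp apart, and not in replicate 3, where an intronic entry with a signal of 34.7, 38756 bp downstream of the start site, was higher. The 3 entries had 231 bp in common, centred 31.4 kb downstream of the start site, which are the letters printed above. Only 50.6% of the Ubx gene body was in its territory, since the rest is nearer to other start sites.

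The second place at Ubx was its start site. The list of 3513 peaks held chr3R:16734430-16734913, with its summit 246 bp upstream and a signal of 96.0, and the thresholded list of replicate 2 held a peak with its summit 128 bp upstream. Within 500 bp of the start site, replicate 1 had no entry, replicate 2 had 58.2 and replicate 3 had 26.6. Because replicate 1 had none, the Ubx start site held no shared region although its entries in the other 2 replicates reached percentiles of 96.5 and 90.6.

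Antp (chr3R:6896253-6999228, minus strand), which gives thoracic segments their identity, had 3 peaks in the list of 3513 and none in the conservative list. The strongest, chr3R:6919684-6920167 in an intron, had a signal of 88.8, with ranked entries of 36.2 in replicate 2 and 32.6 in replicate 3 and none in replicate 1. The next, chr3R:6909320-6909803 over a coding exon that the annotation also gives to CG46458, had 69.5, with ranked entries of 6.85, 36.8 and 28.6 in replicates 1, 2 and 3. The last, chr3R:7000597-7001080, had 69.2, lay 1611 bp upstream of the distal start site within lncRNA:CR45899, and had ranked entries of 9.80 in replicate 1, 61.1 in replicate 2 and none in replicate 3. The 3 places thus differed in which replicates held them: replicate 2 had an entry at each, and replicates 1 and 3 each lacked 1. In the order given they ranked 2627, 3116 and 3119 of 3513.

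All 8 members held at least 1 shared region, against 52.5% of coding genes and 79.3% of those of like size. The numbers were 6 for lab, 1 for pb, 1 for Dfd, 7 for Scr, 3 for Antp, 1 for Ubx, 2 for abd-A and 3 for Abd-B. The territories differ in length, so the density is the fairer measure. It was 30.4 shared regions per 100 kb for lab, 5.0 for pb, 2.35 for Dfd, 18.9 for Scr, 2.49 for Antp, 2.09 for Ubx, 4.78 for abd-A and 5.13 for Abd-B, against a median of 5.48 and quartiles of 2.58 and 9.91 over the like-sized coding genes. The density at lab was above that of 99.7% of those genes and that at Scr above that of 95.2%. The values for pb, abd-A and Abd-B were between the quartiles, and those for Dfd, Antp and Ubx were below the lower quartile. The lab territory, at 19.7 kb, is the smallest of the size range, so lab was ranked among territories at least as long as its own. The 8 territories together had 6.18 shared regions per 100 kb, against 10.6 over all coding territories, which include many of other sizes. That pooled value is near the like-sized median of 5.48, and lab with 6 and Scr with 7 regions contribute much of it.

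**Figure D1:**
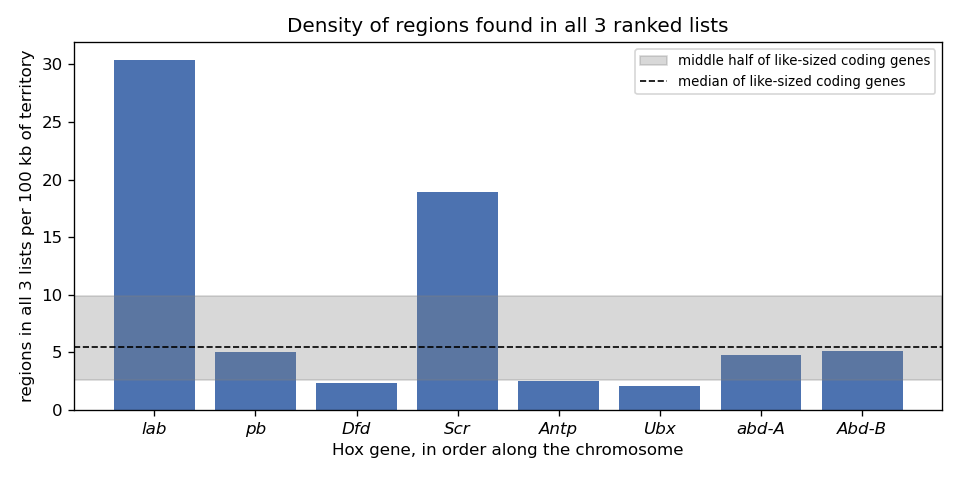
Shared regions of the 3 ranked lists per 100 kb of territory (vertical axis) for each Hox gene in chromosomal order (bars). The band covers the quartiles, 2.58 to 9.91, and the dashed line the median, 5.48, of like-sized coding genes: lab at 30.4 and Scr at 18.9 stand above the band. With equal numbers of entries in each list, lab kept 4 of its 6 regions and Scr 1 of its 7.

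The ranked lists differ in length, and how many regions are shared depends on them. They hold 30159, 59389 and 141211 entries in replicates 1, 2 and 3. In that order, their entries covered 6.44%, 15.5% and 37.7% of the Hox territories, against 7.90%, 16.5% and 35.2% of the genome, and shared regions covered 1.34% of the Hox territories, against 2.43% of the genome. Among like-sized coding genes the medians were 6.45%, 15.3% and 37.2%, and 1.41% for shared regions. When only the 30159 strongest entries of each list were kept, 10 of the 24 shared regions remained, in 5 members: 4 at lab, 1 at Dfd, 1 at Scr, 2 at Antp and 2 at Abd-B. Under the same limit 32.9% of coding genes and 46.9% of those of like size had a shared region. The territories then had 2.58 shared regions per 100 kb, against 4.88 over all coding territories, and lab had 20.3, above 99.9% of like-sized genes. The median density of like-sized genes under this limit is not given here. Scr, which kept 1 of its 7, was not ranked again, so its high standing is shown for the full lists only. Fewer lists have to overlap when 1 is left out, and the count was then 123 without replicate 1, 51 without replicate 2 and 28 without replicate 3.

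lab (chr3R:6661427-6678590, minus strand), the most anterior Hox gene, which acts in the brain and in the copper cells of the midgut, had all 6 of its shared regions in introns, at distances of 1.40 to 6.66 kb from its start sites. The strongest by mean percentile, chr3R:6671784-6672084, had signals of 11.2 in replicate 1, 26.9 in replicate 2 and 28.0 in replicate 3. Second came chr3R:6672750-6672828, with 8.17, 26.9 and 31.4, and the third, chr3R:6669790-6669844, had 8.13, 23.5 and 33.2. The replicates differed here: the percentiles were lowest in replicate 1, at 65.6, 34.0 and 33.5, and highest in replicate 3, at 92.2, 95.02 and 96.0. The order is not particular to lab. Over all shared regions the median percentile was also lowest in replicate 1, at 63.9, and highest in replicate 3, at 82.6. Several of the overlaps were short, 55 bp in the third, and with a minimum of 150 bp in place of 50 bp lab kept 2.

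pb (chr3R:6707800-6742063, minus strand), which is needed for the adult mouthparts, had 1 shared region, chr3R:6735467-6735696 in an intron 6.48 kb downstream of the start site. Its signals were 8.37 in replicate 1, 18.6 in replicate 2 and 16.2 in replicate 3, at percentiles of 36.5, 54.2 and 63.8. The entry of replicate 1 was the only one that list held in the territory, and it lay below the middle of that list, while those of replicates 2 and 3 lay above the middle of theirs. Only 55.4% of the pb gene body was in its territory, since the rest is nearer to other start sites, among them those of a cluster of cuticle genes.

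Dfd (chr3R:6791836-6802428, plus strand), which specifies the maxillary and mandibular segments, had the strongest shared region of all 24 by mean percentile, 87.3 ± 2.09 (SD, n = 3 replicates). It was its only one, chr3R:6791675-6791923, centred 37 bp upstream of its start site, with signals of 15.9 in replicate 1, 32.2 in replicate 2 and 24.1 in replicate 3. All replicates ranked this place alike, at percentiles of 85.8, 89.7 and 86.4. The strongest regions of Abd-B and Ubx came next, at 86.4 ± 5.39 and 85.6 ± 14.5, so the lead of Dfd is within their spread. In each replicate another of the 24 regions ranked higher. None of the 7 thresholded lists had a peak in the territory of Dfd, nor in those of lab, pb and Scr.

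Scr (chr3R:6823120-6849981, minus strand), which acts in the labial and the foremost thoracic segment and switches on the salivary glands, had 7 shared regions, 4 of them upstream of its start sites and 3 within the gene. The strongest, chr3R:6842946-6843269 in an intron 5.40 kb downstream, had signals of 9.77, 24.3 and 30.2 in replicates 1, 2 and 3. The next, chr3R:6856858-6856965, 6.93 kb upstream, had 9.75, 26.4 and 15.2. The region at the distal start site, centred 140 bp upstream, had 15.5, 13 and 18.7. At this start site replicate 1 ranked highest, at the 84.9th percentile, and replicate 2 lowest, at the 23.8th. In the intronic region replicate 1 ranked lowest, at 52.5, replicate 2 was at 76.3 and replicate 3 highest, at 94.2. The latter order is also that of the median percentiles over all shared regions.

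Antp had 3 shared regions in the longest territory, 121 kb. The strongest, chr3R:6990047-6990226 in an intron 9.09 kb downstream of the distal start site, had signals of 11.7, 25.4 and 20.6 in replicates 1, 2 and 3, at percentiles of 69.0, 79.1 and 78.7. The second, chr3R:6909539-6909685, lay under the exonic peak described above, with percentiles of 15.7, 92.7 and 92.8. The third, chr3R:7007096-7007459, 8.05 kb upstream, had 9.07, 16.2 and 20.3. The replicates ranked the first of these most nearly alike.

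abd-A (chr3R:16807214-16830049, minus strand), which specifies abdominal segments and the heart proper within the cardiac tube, had both of its shared regions near its start sites. The one at chr3R:16829836-16829953 had signals of 11.8 in replicate 1, 36.4 in replicate 2 and 20.04 in replicate 3, at percentiles of 69.2, 92.5 and 77.1. It was centred 142 bp upstream of the nearest of 3 annotated start sites, in the 5′ untranslated region that begins at the start site farther upstream. The other, chr3R:16827398-16827615 in a coding exon, had 10.8, 14.5 and 12.8, so the entries at the upstream start sites were the higher in each replicate.

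Abd-B (chr3R:16927212-16972236, minus strand), which specifies the posterior abdomen and the genitalia, had 3 shared regions. The strongest, chr3R:16934108-16934323, was centred 27 bp downstream of the proximal of its 6 start sites and had signals of 14.4, 36.2 and 23.2 in replicates 1, 2 and 3, at percentiles of 82.0, 92.4 and 84.8. The next, chr3R:16929211-16929574 in a coding exon, had 12.2, 20.6 and 25.2, and the last, chr3R:16949751-16950040 in an intron, had 7.21, 22.3 and 20.2. The first ranked above both others in replicates 1 and 2, while in replicate 3 the exonic one was higher. None of the 7 thresholded lists had a peak in the Abd-B or abd-A territory.

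**Figure D2:**
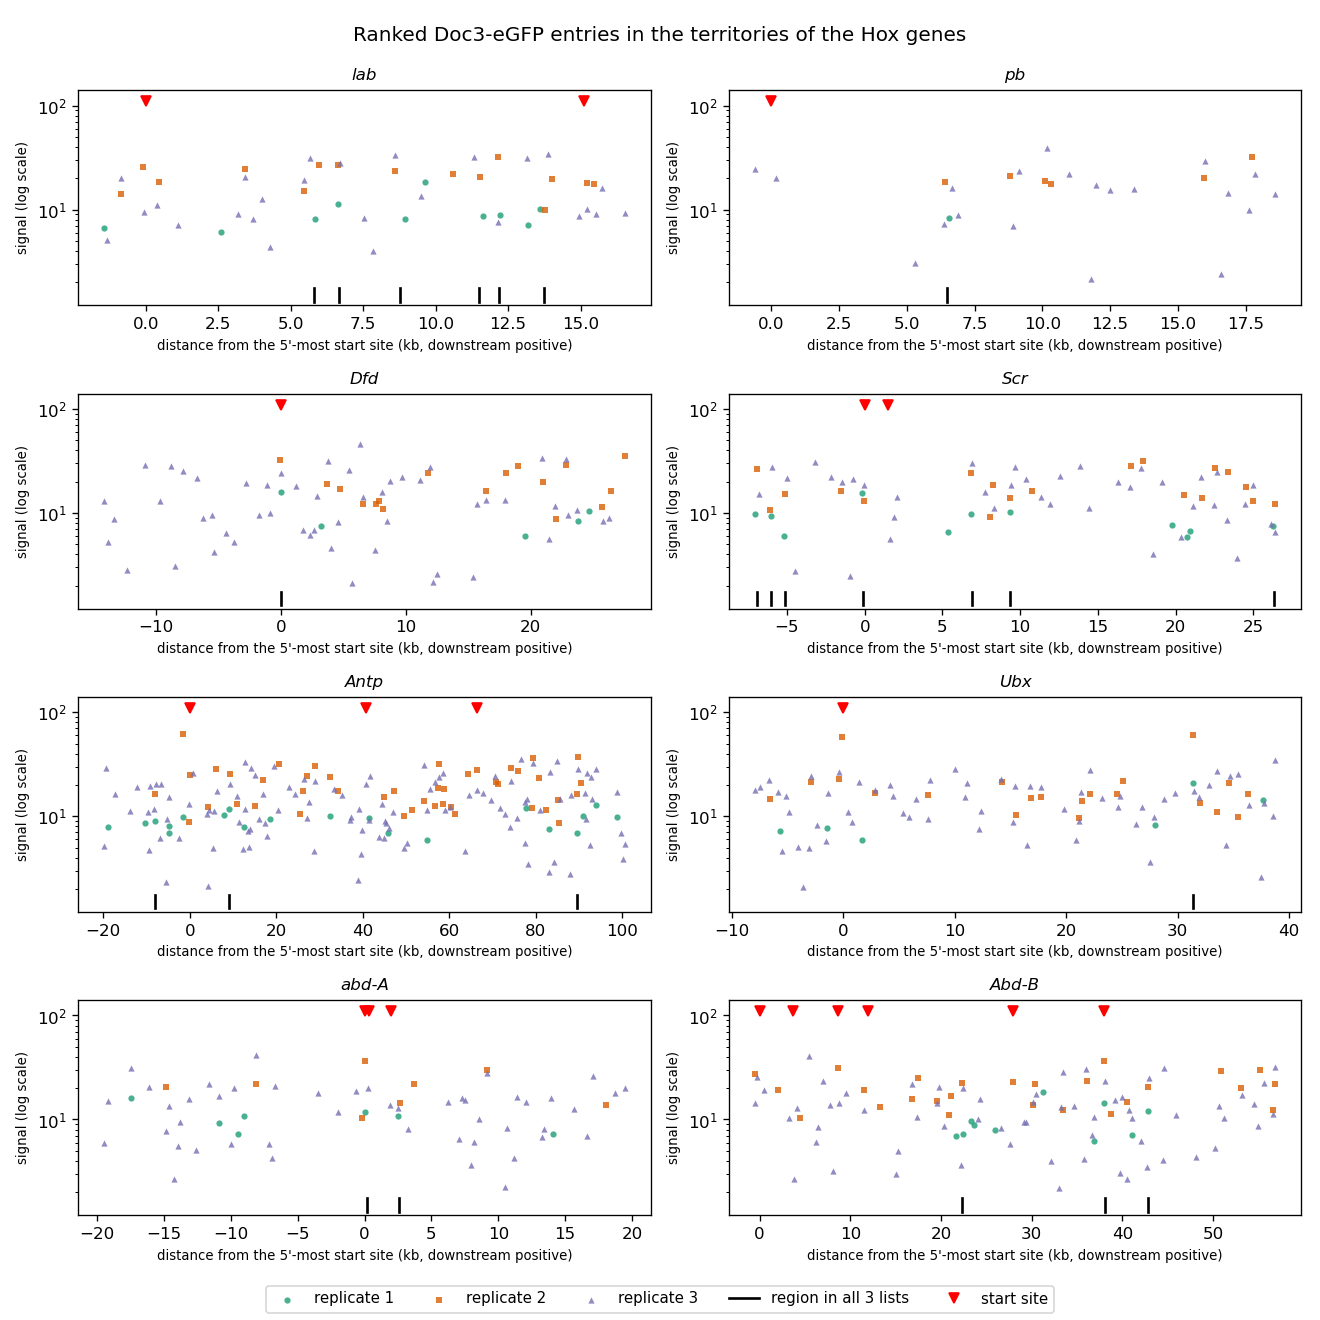
Each panel is a Hox gene. The horizontal axis is the distance from its 5′-most start site in kb, downstream positive, and the vertical axis is the authors' signal on a log scale. Points are the entries of the 3 ranked lists, ticks at the foot are the 24 shared regions and red triangles are start sites. At Ubx the entries of replicates 1 and 2 at 31.4 kb, 20.9 and 59.8, are the highest of their own lists in its territory. In replicate 2 the lead is small, with 58.2 at the start site.

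The places of highest signal rarely agreed between replicates. The highest ranked entry in each gene's territory was compared between each pair of replicates, and 1 of the 24 pairs overlapped, that of Ubx in replicates 1 and 2. Of the 24 highest entries, 4 lay within 500 bp of a start site of the gene. Neither count was made over other coding genes, so both describe the Hox genes without showing that they differ from others. The mean percentile of a gene's highest entry was 94.8 ± 3.21 for Ubx, 93.2 ± 4.49 for Abd-B, 92.4 ± 5.92 for abd-A, 92.1 ± 6.37 for Dfd, 91.7 ± 4.2 for lab, 89.6 ± 12.4 for Antp, 89.5 ± 4.85 for Scr and 74.5 ± 33.2 for pb (SD, n = 3 replicates each). No neighbours in this order differ beyond their spread, and a longer territory or list offers more entries to choose the highest from.

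By their median, the 24 shared regions lay farther from start sites than shared regions in general. Long territories leave room for larger distances, and the distances were not compared with those in like-sized genes. Of them, 4 (16.7%) were centred within 500 bp of a start site of their gene, against 35.9% of all 12906, and the median distance was 5711.5 bp, against 1199 bp over all. By annotation 12 were intronic, 6 intergenic, 3 in coding exons, 2 in 5′ untranslated regions and 1 in a 3′ untranslated region. Their signals were about those of shared regions in general in replicates 2 and 3, and lower in replicate 1. The median signals of the 24 were 9.76 in replicate 1, 22.9 in replicate 2 and 22.5 in replicate 3. Over all shared regions they were 11.0, 23.7 and 22.3. The median percentiles of the 24 were 52.4, 71.96 and 83.1 in replicates 1, 2 and 3. Over all shared regions they were 63.9, 74.42 and 82.6. The 24 regions were about as long as the others, with a median of 230.5 bp, against 264 bp over all.

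The 8 genes have 19 annotated start sites, and 6 of them, in Dfd, Scr, abd-A and Abd-B, had a shared region within 500 bp, against 37.8% of the 19607 start sites of all coding genes. These 6 were the only Dfd site, the distal Scr site, all 3 of abd-A, which lie close together, and the proximal of 6 in Abd-B. Entries of single lists were within 500 bp of 7 of the 19 sites in replicate 1, 15 in replicate 2 and all 19 in replicate 3. Over all coding genes the shares of sites were 55.1%, 71.4% and 84.3%. The Hox start sites were thus all reached in the longest list, and mostly missing from the shortest. The 2 lab sites, the pb site, the proximal Scr site, the Antp and Ubx sites and the 5 distal Abd-B sites had no shared region. Among these, only the middle Antp site, which CG46458 shares, had an entry in replicate 1, at 9.63. Without replicate 1, 14 of the 19 sites had a region in both other lists, and with the 30159 strongest entries of each list 2 of them had a shared region.

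**Figure D3:**
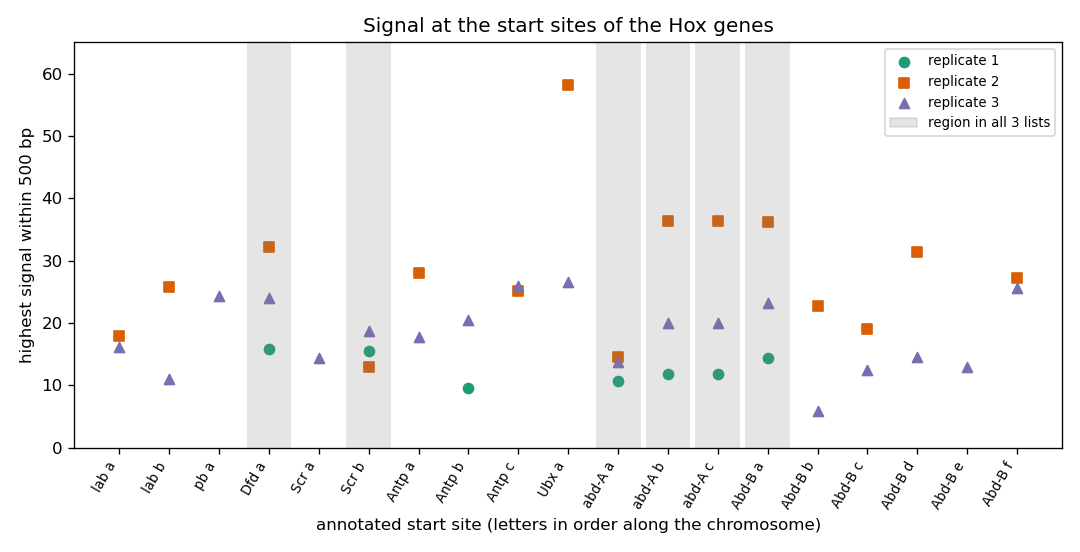
The highest signal of an entry within 500 bp (vertical axis) at each of the 19 start sites of the Hox genes (horizontal axis, letters in chromosomal order within a gene), 1 symbol for each replicate with an entry. Grey columns mark the 6 sites with a shared region, and the Ubx site has 58.2 in replicate 2, 26.6 in replicate 3 and none in replicate 1.

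Motifs were counted on both strands in windows that reach 100 bp to either side of the centre of each shared region. The long T-box motif GGTGTGA was in 0 of the 24 Hox windows, with a 95% Wilson interval up to 13.8%, against 1.73% of the windows of all shared regions and 2.40% of those of conservative summits. The short form GGTGTG, which is part of the long one, was in 4 of 24 (16.7%), at Abd-B, Antp, Scr and lab, with an interval of 6.68% to 35.9%, against 9.07% and 7.63%. Both background shares of each form lay within the intervals of the Hox shares, and absent letters say nothing of the factor. The Tinman motif CACTTGA and the Zelda motif CAGGTAG were also in 0 of 24, against 3.20% and 1.12% of all shared regions. The DREF motif TATCGATA was in 0 of 24, against 6.51% of all shared regions, a share within the interval of the Hox share. It was in 26.4% of conservative summits, which is above the upper limit of the interval, 13.8%. Those windows are from a strict list and centred on summits, so all shared regions are the closer comparison.

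The homeodomain motif TAATTA was in 2 of 24 (8.33%), at Scr and lab, against 9.76% of all shared regions. TGATTNAT, the composite motif of the cofactor Exd with a Hox protein, was in 2 of 24, at Scr and lab, against 3.84%. GAGAG was in 7 of 24 (29.2%), with an interval of 14.9% to 49.2%, against 23.6%, and GCCAT in 11 of 24 (45.8%), with an interval of 27.9% to 64.9%, against 36.4%. Each of these background shares lay within the interval of the Hox share. The Dfd and Ubx windows each held 5 copies of GAGAG and 2 of GCCAT, and 13 of the 12906 windows (0.101%) had at least that many of both. The combination was singled out after the letters had been seen and is a description of these 2 windows. The median GC content was 50.2% in the Hox windows, against 45.8% in all shared regions and 38.3% at conservative summits.

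**Figure D4:**
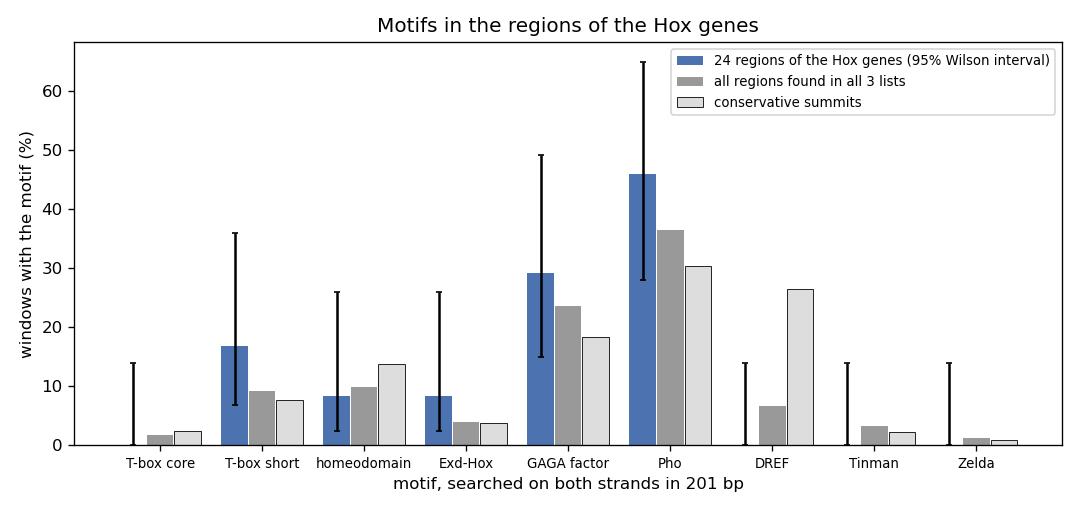
Percent of windows, 100 bp to either side of the centre, with each motif (vertical axis, from 0) for the 9 motifs (horizontal axis). Bars give the 24 Hox regions with 95% Wilson intervals, all shared regions and conservative summits. The widest gap is at DREF, with 0 of 24 against 26.4% at conservative summits. The DREF share of all shared regions, 6.51%, is within the Hox interval.

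Within the 2 complexes, many shared regions were nearest to genes that are not Hox genes. The Antennapedia complex, measured from the end of lab to the distal start site of Antp, spans 338 kb with 20 coding genes and held 20 shared regions, of which 17 were nearest to a start site of a Hox gene. The bithorax complex spans 316 kb with 6 coding genes and also held 20, of which 6 were. The strongest in the Antennapedia complex was at bcd, the gene of the anterior morphogen, centred 54 bp upstream of its start site, with 28.9, 62.6 and 34.5 in replicates 1, 2 and 3. The place also had the only conservative peak of that complex, with a signal of 126. A region inside the pb intron, with 18.5, 32.1 and 16.98, was nearest to the cuticle protein gene Ccp84Aa and so not counted to pb. In the bithorax complex, a region in the gene MSAmiP, within the noncoding transcript lncRNA:iab8 between abd-A and Abd-B, had 12.9, 25.9 and 34.8. Another, also within lncRNA:iab8 but 3549 bp upstream of the MSAmiP start site, had 14.4, 23.1 and 18.8. When no base was left out for nearer start sites, the territories held 48 shared regions in place of 24, of which 18 at Ubx. Among regions not counted to Ubx, 5 in its introns were nearest to the start site of modSP, the gene of a serine protease of the Toll pathway, which lies past the 3′ end of Ubx. Then 2 members, pb and Ubx, had a conservative summit, that of pb being the peak at bcd.

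Genes that act on or with the Hox genes were examined beside them, in 5 lists with the same territory rule. Of the 50 genes, 19 (38.0%) had a conservative summit, against 16.7% of coding genes. The lists were chosen with earlier results of these data known, so this difference only describes them. The 16.7% is also the share to set beside the count of each list. For 17 of the 19 the highest peak lay within 500 bp of a start site. Of 21 Polycomb group genes, which keep Hox genes silent, 7 had one, the highest at Scm with a signal of 427, Asx with 274, Pc with 265 and Caf1-55 with 215, while caly and E(z) were among the 14 without. Of 16 trithorax group genes, which keep them active, 8 had one, the highest at kis with 541, fs(1)h with 411, lolal with 334 and kto with 305, while ash2 and brm were among the 8 without. Trl, which encodes the GAGA factor, had one at 126.

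Of the 2 Hox cofactors, the TALE homeodomain gene exd had a conservative peak with a signal of 171, centred 106 bp from its start site, and hth, which brings Exd into the nucleus, had none but held 11 shared regions. Of the other 4 homeobox genes of the Antennapedia complex bcd had one and ftz and zen were among those without. Of 7 genes regulated by Hox proteins, 2 had one: Dll, the limb gene that Ubx and Abd-A repress in the abdomen, with 117, and dpp, the signalling gene that Ubx activates in the midgut, with 87.1. The genes rho and rpr were among the 5 without. A shared region was present at 37 of the 50, against 52.5% of coding genes. Among coding genes with territories in the Hox size range the share was 79.3%, and the 50 genes were not matched for size. They are thus not shown to hold shared regions more often than other genes. The highest conservative peaks of these genes were at start sites for the most part, whereas those of Ubx were in an intron. The share at start sites over all genes with a conservative peak was not computed. The position is thus not shown to be particular to these lists.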

How the data were processed

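The members, gene lists and motifs were chosen with earlier results of these data known, and no test or p-value was computed, since the 3 biological replicates form 1 group with no control analysed here. Replicate numbers are those of the labels. Per the labels, chromatin was sonicated to 200 to 800, and the authors' files are peak lists on dm6. For aligner and peak caller, names and versions were not given in the sources used here. Signal is the value the authors deposited for each entry, on an unstated scale, and was used only to describe and rank entries within a list. The deposited score is a scaled irreproducible discovery rate, and the lowest in the thresholded lists was 830. The summit offset the authors deposited gave each peak's position. The lists give no read numbers, so depth is unknown, and which replicates each series-level list pooled or compared is not stated. A peak was counted to a gene by its summit, and a shared region by its centre. Nearly all ranked entries had 1 fixed width per list: 98.1% were 364 bp in replicate 1, 98.8% were 404 bp in replicate 2 and 98.3% were 380 bp in replicate 3.

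Genes and start sites came from Ensembl release 115, whose annotation 6.54 describes genome release 6, the same as dm6, and sequences came from the RefSeq genome of that release. Like-sized genes are the 1554 coding genes with territories of 19740 to 120646 bp. Python 3.11.15, numpy 2.4.6, pandas 2.3.3, scipy 1.17.1 and matplotlib 3.10.9 were used, and the overlap and motif code was tested on simulated data. Wilson intervals cover counting error only. Named were all 8 members, up to 3 shared regions each by mean percentile (and the distal Scr start site, whose region is the third), every series-level thresholded peak in a territory, up to 4 genes of each list with the highest conservative signal and up to 2 without, first in the alphabet, and other genes of the complexes where one of the 5 strongest regions or a thresholded peak was theirs. Trl was named outside this rule, after its value was seen, as the gene of the GAGA factor, and so were modSP, nearest to regions in Ubx introns, and CG46458, which overlaps Antp. The 4 series-level ranked lists were not used. Alternatives were other lists, flanks, territories, overlaps, list lengths, windows and leaving out each replicate.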

Additional observations from a re-analysis of the deposited data

How the results depend on the processing

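The count of members with a conservative summit, 1, was 2 in the list of 3513 peaks, 0 in that of 2456, 0 in that of 2301, 0 among the 50% of conservative peaks with the highest signal, 2 with no base left out of the territories, and 0 to 0 when the peak had also to be in the thresholded lists of both replicates left after each was left out. It was 1 with every flank tried. The 24 shared regions were 10 with equal numbers of entries, 48 with no base left out, 13 with summits within 150 bp of each other, 16 with a minimum of 150 bp, and 28 to 123 without 1 replicate. The 8 members with a shared region (52.5% of coding genes, 79.3% of those of like size) were 5 with equal numbers of entries (32.9% and 46.9%). The covered share, 1.34%, was 0.489% with equal numbers of entries and 2.05% to 10.3% without 1 replicate. The 6 start sites with a shared region were 2 with equal numbers of entries and 6 to 14 without 1 replicate. Counts without a replicate are higher by construction, since fewer lists must overlap. In windows of 50 bp to either side of the centre TAATTA was in 0% of the Hox regions and GCCAT in 20.8%. The other alternatives moved counts by less than 1.5 times and left motif shares within their intervals. No paired analysis was possible because all replicates belong to 1 group.

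The limits are those of the lists: depth is unknown, the replicate lists differ in length from 30159 to 141211 entries, and the longest covers 35.2% of the genome. Whole embryos were used, and no control was analysed here.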

Other observations

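Entries of single lists in the Hox territories numbered 70 in replicate 1, 156 in replicate 2 and 426 in replicate 3, or 18.0, 40.2 and 110 per 100 kb, against 24.2, 47.8 and 108 per 100 kb over all coding territories. The density was thus below that of all coding territories in the shorter lists of replicates 1 and 2 and about the same in the longest. Entry density was not compared with like-sized genes. The share of bases covered was close to their median, 6.44% against 6.45% in replicate 1 and 15.5% against 15.3% in replicate 2. lab, the anterior gene with the densest shared regions, also had the densest entries of the 8 in replicates 1 and 2, at 50.7 and 76.0 per 100 kb, and 132 in replicate 3, where Ubx also had 132. pb had the fewest in replicate 1, at 5.0 per 100 kb, and abd-A in replicate 2, at 19.1 per 100 kb.

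Several of the highest entries of replicate 3 lay away from the places described for the other replicates. In Dfd it was 45.6, in an intron 6340 bp downstream of the start site, and in Abd-B 40.7, in a 5′ untranslated region 1750 bp downstream of a start site. In abd-A it was 41.7, in an intron of MSAmiP within lncRNA:iab8. Each stood above the 98th percentile of that list (98.5, 98.1 and 98.2), and no shared region was centred at these 3 places.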
